A study of Mus musculus with 12 samples.

Results

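Middle T partner genes are 9 mouse genes whose products bind the polyoma middle T antigen or act directly downstream of it: Src and Yes1 in the Src arm, Shc1 and Grb2 in the Shc and Ras arm, Pik3ca, Pik3r1, Akt1 and Akt2 in the PI3K and Akt arm, and Ppp2r1a in the PP2A arm. They were chosen by name, for their known place in middle T signaling, with earlier results of these data known. All 9 were found among the 23301 gene names shared by the 12 expression tables. RNA was sequenced in 4 groups of 3 samples, all from female mice 12 weeks old. The Normal group was mammary gland of FVB wild type mice with no treatment, and the Tumor group was mammary tumor of MMTV-PyVT mice with no treatment. The DMSO and C646 groups were tumors of MMTV-PyVT mice that had been injected with the solvent DMSO or with C646, an inhibitor of the histone acetyltransferase p300, at 1 mg/kg (the labels give this dose for both). Every tumor therefore carried the PyVT transgene, which encodes middle T and is driven in mammary epithelium by the MMTV promoter, and no Normal sample carried it. Each Normal replicate pooled abdominal and inguinal glands of 3 mice, whereas each Tumor replicate was a thoracic tumor of 1 mouse, so that genotype, tissue, gland position and pooling cannot be told apart in this comparison. For the injected groups, the biggest tumor of each mouse was taken.

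Middle T has no enzyme activity of its own. It sits at the membrane, binds the PP2A core enzyme and the Src family kinases Src, Yes and Fyn, and is phosphorylated by them on tyrosines that then recruit Shc with Grb2, which leads to Ras, and the p85 subunit of PI3K, which leads to Akt. In the mouse mammary gland this assembly is known for driving multifocal, metastatic adenocarcinoma, and the measurements here concern only how much RNA of each host partner was present, not its protein, phosphorylation or binding to middle T.

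Of the 9 genes, Src, Akt2, Pik3ca and Ppp2r1a had the lowest adjusted p in tumor against normal gland. Their upstream sequences are shown because these genes moved in opposite directions, Src and Ppp2r1a upward and Pik3ca and Akt2 downward. Each run holds the 250 bases before a RefSeq transcription start (for Akt2 the first of 4) in build GRCm38.p6, 5′ to 3′, with the GC box letters GGGCGG or CCGCCC in capitals.
Src (chr2:157424043-157424292, plus strand): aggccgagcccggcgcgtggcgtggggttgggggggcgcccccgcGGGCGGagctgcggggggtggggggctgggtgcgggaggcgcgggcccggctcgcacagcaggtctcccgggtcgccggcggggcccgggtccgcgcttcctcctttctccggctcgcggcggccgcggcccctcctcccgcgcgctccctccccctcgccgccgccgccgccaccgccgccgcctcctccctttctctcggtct
Ppp2r1a (chr17:20945204-20945453, plus strand): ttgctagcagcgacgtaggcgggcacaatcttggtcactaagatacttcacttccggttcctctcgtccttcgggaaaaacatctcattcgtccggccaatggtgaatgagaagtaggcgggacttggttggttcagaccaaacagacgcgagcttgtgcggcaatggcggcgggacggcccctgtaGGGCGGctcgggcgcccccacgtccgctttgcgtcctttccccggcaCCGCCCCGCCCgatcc
Pik3ca (chr3:32396815-32397064, plus strand): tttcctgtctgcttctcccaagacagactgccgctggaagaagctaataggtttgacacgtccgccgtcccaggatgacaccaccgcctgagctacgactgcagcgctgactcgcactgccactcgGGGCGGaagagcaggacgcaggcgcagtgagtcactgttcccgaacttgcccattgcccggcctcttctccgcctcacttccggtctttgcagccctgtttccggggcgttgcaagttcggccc
Akt2 (chr7:27591302-27591551, plus strand): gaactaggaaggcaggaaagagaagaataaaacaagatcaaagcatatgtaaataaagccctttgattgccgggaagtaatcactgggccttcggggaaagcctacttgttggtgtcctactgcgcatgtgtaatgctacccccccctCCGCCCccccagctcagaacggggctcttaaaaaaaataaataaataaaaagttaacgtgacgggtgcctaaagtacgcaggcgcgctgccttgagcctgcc
On either strand, the GC box was present in 8 of the 16 windows of the 9 genes and in 32.7% of all 32851 windows of the same length. In Ppp2r1a 2 of the 3 boxes overlap by a base. The letters occur upstream of genes that were higher and of genes that were lower in tumor, and a match describes the sequence only.

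Values were deposited as FPKM, fragment numbers scaled for transcript length and for the mapped fragments of the library, so that levels of different genes can be set side by side. Differences were tested with limma, a linear model fitted to all genes of the table, of log2(FPKM + 0.03125). A gene was tested if it reached 1 FPKM in 3 or more of the 6 samples, and it was called changed at a Benjamini-Hochberg adjusted p under 0.05. All 9 partner genes passed this filter in both comparisons. Read totals were not in the tables. Where the smallest steps between low values allowed an estimate, the depth of one injected tumor library over another was 0.702 to 1.29, and Tumor replicate 3 was 1.53-fold as deep as Tumor replicate 1. The marker genes followed the labels in part. In tumor 4 of 5 luminal epithelial markers were higher (summed level 2225 to 3244 FPKM against 401 to 843). Of the adipocyte markers 6 of 6 were lower (94.8 to 1252 against 17010 to 21674). T cell and B cell markers were lower in 5 of 5 each. Their sums in tumor were 0.721 to 2.1 FPKM and 0.456 to 0.829 FPKM, so none reached 1 FPKM in all 3 tumors. None of them could thus pass the filter without Normal, where they were high. The 5 skeletal muscle markers were all higher in the untreated tumors, with a summed level of 1539 to 4364 FPKM against 10.6 to 81.6 FPKM in normal gland. Between C646 and DMSO no marker gene was called. The luminal sums overlapped there (2202 to 2744 FPKM and 2475 to 2865 FPKM). The adipocyte sums did not overlap, at 60.8 to 300 FPKM in C646 and 12.0 to 52.3 FPKM in DMSO. The muscle sums varied widely in both, at 1.97 to 338 FPKM and 0.774 to 334 FPKM. The part of muscle or fat in the level of any partner gene was not tested.

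The first comparison asked how the host side of middle T signaling differed between untreated tumor and normal gland. Of the 9 partner genes, 3 rose (Src, Pik3r1 and Ppp2r1a), 3 fell (Akt2, Pik3ca and Shc1) and 3 did not pass the test (Akt1, Yes1 and Grb2). Over all 13031 genes tested, 28.8% were called higher and 31.7% lower (60.5% in all), so the count of partner genes called was close to that of genes in general. The median log2 change of the 9 was 0.32, beside -0.02 over all genes tested. The 3 Tumor samples lay wholly above the 3 Normal samples for 4 of the 9 genes and wholly below them for 3, a separation that 33.1% and 35.8% of all genes showed (68.9% in all). In bulk tissue, fewer cells of a type and less RNA per cell cannot be told apart, and this applies to every level below.

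**Figure D1:**
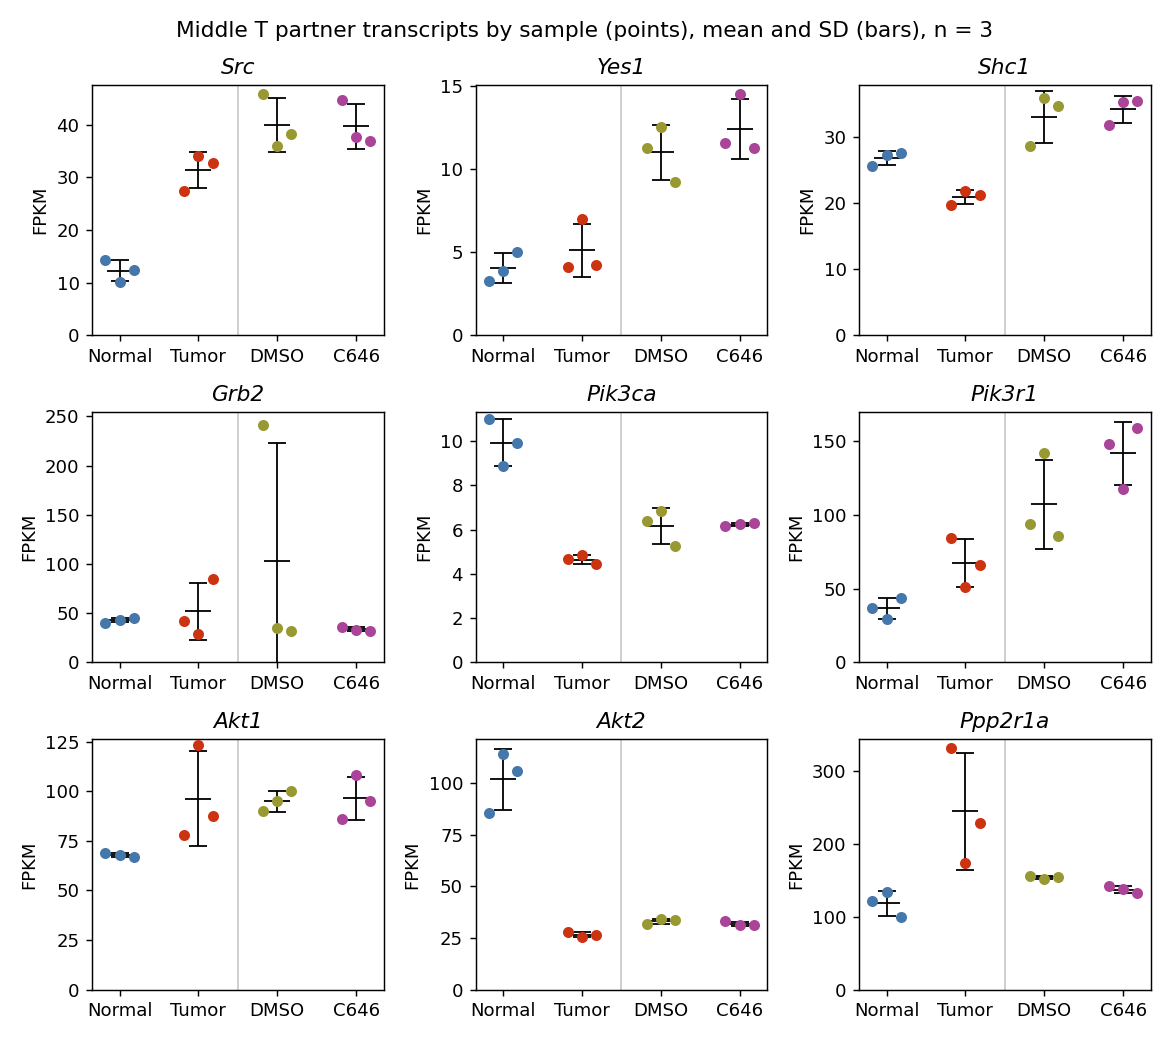
FPKM of each partner gene (y axis, linear, from 0) in the 4 groups (x axis); points are single samples, and bars give the mean and SD of 3. The grey line separates the Normal and Tumor tables from the DMSO and C646 tables, which were made separately; the lower error bar of Grb2 in DMSO runs below 0 and is cut. Src, Pik3r1 and Ppp2r1a stood higher and Akt2 and Pik3ca lower in Tumor than in Normal, and Grb2 had 1 sample at 241 FPKM.

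Src encodes the tyrosine kinase that is activated on binding middle T. Its level was 14.3, 10.2 and 12.4 FPKM in Normal replicates 1 to 3, and 27.5, 34.0 and 32.8 FPKM in Tumor replicates 1 to 3. Every tumor was above every normal gland. Src rose 2.56-fold in mean FPKM, a log2 change of 1.36 ± 0.17 (SE; limma adjusted p = 0.000457).

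Yes1, a second kinase of the family, was expressed at a lower level. It measured 3.24, 3.85 and 5.02 FPKM in Normal and 4.14, 6.97 and 4.24 FPKM in Tumor, and the groups overlapped, with only Tumor replicate 2 above all normal glands. Its log2 difference was 0.32 ± 0.27 (SE; limma adjusted p = 0.338), with a 95% interval from -0.32 to 0.96. Fyn, the third kinase that binds middle T, fell from 33.5 ± 1.9 to 4.41 ± 0.87 FPKM (SD, n = 3), a log2 change of -2.93 ± 0.17 (SE; limma adjusted p = 2.79e-05). Src thus made up 21.1% to 29.3% of the summed FPKM of Src, Yes1 and Fyn in normal gland and 76.3% to 77.4% in tumor, while Fyn went from 64.1% to 70.9% down to 8.05% to 12.6%. Fyn is also abundant in T cells, whose 5 markers summed to 215 to 291 FPKM in normal gland and 0.721 to 2.1 FPKM in tumor. The part of these cells in the change of Fyn was not tested. Lyn, a Src family kinase, was at 20.2 ± 1.1 and 22.0 ± 2.8 FPKM (SD, n = 3) and did not pass the test. Csk, the kinase that phosphorylates the inhibitory tail tyrosine of Src family members, fell from 62.3 ± 6.9 to 29.0 ± 2.0 FPKM (SD, n = 3), a log2 change of -1.10 (limma adjusted p = 0.000412).

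Shc1 encodes the adaptor that binds phosphorylated middle T, and Grb2 the adaptor that links Shc to the Ras exchange factor Sos. Shc1 was at 25.6, 27.2 and 27.5 FPKM in Normal and 19.7, 21.8 and 21.2 FPKM in Tumor. All 3 tumors were below all 3 normal glands, and the log2 change was -0.36 ± 0.12 (SE; limma adjusted p = 0.0333). This call was fragile. The Normal and Tumor tables also hold a row that names Pbxip1 and Shc1 together, and that row was at 34.8, 45.1 and 35.3 FPKM in Normal and at 88.7, 36.1 and 56.0 FPKM in Tumor. With the joined row added to Shc1, an alternative chosen after the data were seen, the log2 difference turned to 0.27 (limma adjusted p = 0.335), and the call was also lost on leaving out any one of the 3 Normal replicates or Tumor replicate 1 or 3.

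Grb2 did not separate the groups. It was at 40.4, 43.5 and 45.4 FPKM in Normal and at 42.2, 28.6 and 84.7 FPKM in Tumor, so that the normal glands lay close together and the tumors ranged widely on both sides of them. The log2 difference was 0.12 ± 0.36 (SE; limma adjusted p = 0.791), and it was -0.31 without Tumor replicate 3, -0.03 after quantile normalization and -0.13 when each sample was scaled to the same FPKM sum. Of the other Shc genes, Shc2 fell from 3.02 ± 0.54 to 0.359 ± 0.280 FPKM (SD, n = 3; limma adjusted p = 0.00154). Only the Normal samples reached 1 FPKM for Shc2, so it was tested through the group where it was high. Shc4 was at 1.56 ± 1.07 and 3.12 ± 1.64 FPKM (SD, n = 3; limma adjusted p = 0.18, and 0.0367 without Tumor replicate 2), and Shc3 was too low to be tested.

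The PI3K subunits moved in opposite directions. Pik3ca encodes the catalytic subunit p110 alpha, and it was at 11, 8.87 and 9.92 FPKM in Normal and at 4.66, 4.86 and 4.43 FPKM in Tumor. The 3 tumors lay close together and below every normal gland, and Pik3ca fell by 1.09 ± 0.15 on the log2 scale (SE; limma adjusted p = 0.000782). Pik3r1 encodes p85 alpha, the regulatory subunit that binds phosphorylated middle T and holds p110 at the membrane. It was at 36.9, 29.5 and 44.0 FPKM in Normal and at 84.3, 51.5 and 66.4 FPKM in Tumor, again without overlap. Pik3r1 rose by 0.86 ± 0.22 on the log2 scale (SE; limma adjusted p = 0.0126).

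The ratio of Pik3r1 to Pik3ca FPKM accordingly had a geometric mean of 3.68 in Normal and 14.2 in Tumor, without overlap. The exact two-sided permutation test gave p = 0.1, the smallest it can give for 3 against 3 samples, so that none of the 10 ratios tested (5 in each comparison) could pass 0.05 (Benjamini-Hochberg p = 0.25). Among the other catalytic subunits, Pik3cd (p110 delta), known as a leukocyte isoform, fell from 21.7 ± 2.5 to 0.400 ± 0.139 FPKM (SD, n = 3), a log2 change of -5.69 (limma adjusted p = 1.43e-05). It reached 1 FPKM in the Normal samples alone, and so entered the test only through the group where it was high. Pik3cb (p110 beta), which is widely expressed, changed by -0.49 (limma adjusted p = 0.0387), and that call was lost on leaving out Normal replicate 2 or 3 or Tumor replicate 2 or 3. Pik3cd thus made up 37.8% to 44.8% of the summed FPKM of the 4 catalytic genes in normal gland and 1.55% to 3.04% in tumor, whereas the share of Pik3ca was 16.2% to 22.6% and 22.8% to 26%. The 5 B cell markers summed to 229 to 293 FPKM in normal gland and to 0.456 to 0.829 FPKM in tumor, with Ms4a1 at 0 in at least 1 tumor, and the part of lymphocytes in the fall of Pik3cd was not tested. The other regulatory genes rose with Pik3r1: Pik3r2 by 0.84 (limma adjusted p = 0.0116) and Pik3r3 by 1.43 on the log2 scale (limma adjusted p = 0.0113), the former not without Normal replicate 3 (limma adjusted p = 0.0502).

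Akt2 showed the largest change of the 9 genes. Akt1 and Akt2 encode kinases that are recruited by the PI3K product, and Akt2 is known for its role in insulin-stimulated glucose uptake in fat and muscle. Akt2 was at 85.4, 114 and 106 FPKM in Normal and at 27.8, 25.7 and 26.4 FPKM in Tumor, a narrow range in tumor far below every normal gland. It fell 3.82-fold in mean FPKM, a log2 change of -1.92 ± 0.15 (SE; limma adjusted p = 5.83e-05). Akt1 was at 68.9, 67.7 and 67.1 FPKM in Normal and at 77.8, 123 and 87.5 FPKM in Tumor. Every tumor was above every normal gland, but the log2 difference of 0.47 ± 0.19 (SE; limma adjusted p = 0.0591) did not pass the threshold. It passed without Tumor replicate 1 (0.61, limma adjusted p = 0.0199) and in a fit of all 12 samples (limma adjusted p = 0.0228). The geometric mean ratio of Akt1 to Akt2 was 0.672 in Normal and 3.54 in Tumor, without overlap (exact permutation p = 0.1). Akt2 was the more abundant of the pair in each normal gland, at 55.3% to 62.7% of the summed FPKM of Akt1 and Akt2, and Akt1 was the more abundant in each tumor, at 73.7% to 82.8%. The adipocyte markers given above fell along with Akt2. The part of adipocytes in the fall of Akt2 was not tested.

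Ppp2r1a encodes the alpha isoform of the scaffold A subunit of PP2A, the protein phosphatase subunit through which middle T holds the phosphatase. It was at 121, 134 and 99.7 FPKM in Normal and at 332, 174 and 228 FPKM in Tumor. The tumors differed widely among themselves and all lay above the normal glands. Ppp2r1a rose 2.07-fold in mean FPKM, a log2 change of 1.01 ± 0.25 (SE; limma adjusted p = 0.0105). Its paralog Ppp2r1b, the beta scaffold, went the other way, from 35.0 ± 2.4 to 11.2 ± 0.7 FPKM (SD, n = 3), a log2 change of -1.64 (limma adjusted p = 6.15e-05). Ppp2r1a therefore made up 72.5% to 79.8% of scaffold FPKM in normal gland and 93.9% to 96.9% in tumor. Of the catalytic subunits of PP2A, Ppp2ca was at 127 and 122 FPKM on average (log2 difference -0.05, limma adjusted p = 0.764), while Ppp2cb rose by 0.49 (limma adjusted p = 0.00967), a call that was lost after quantile normalization or scaling to the same FPKM sum.

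**Figure D2:**
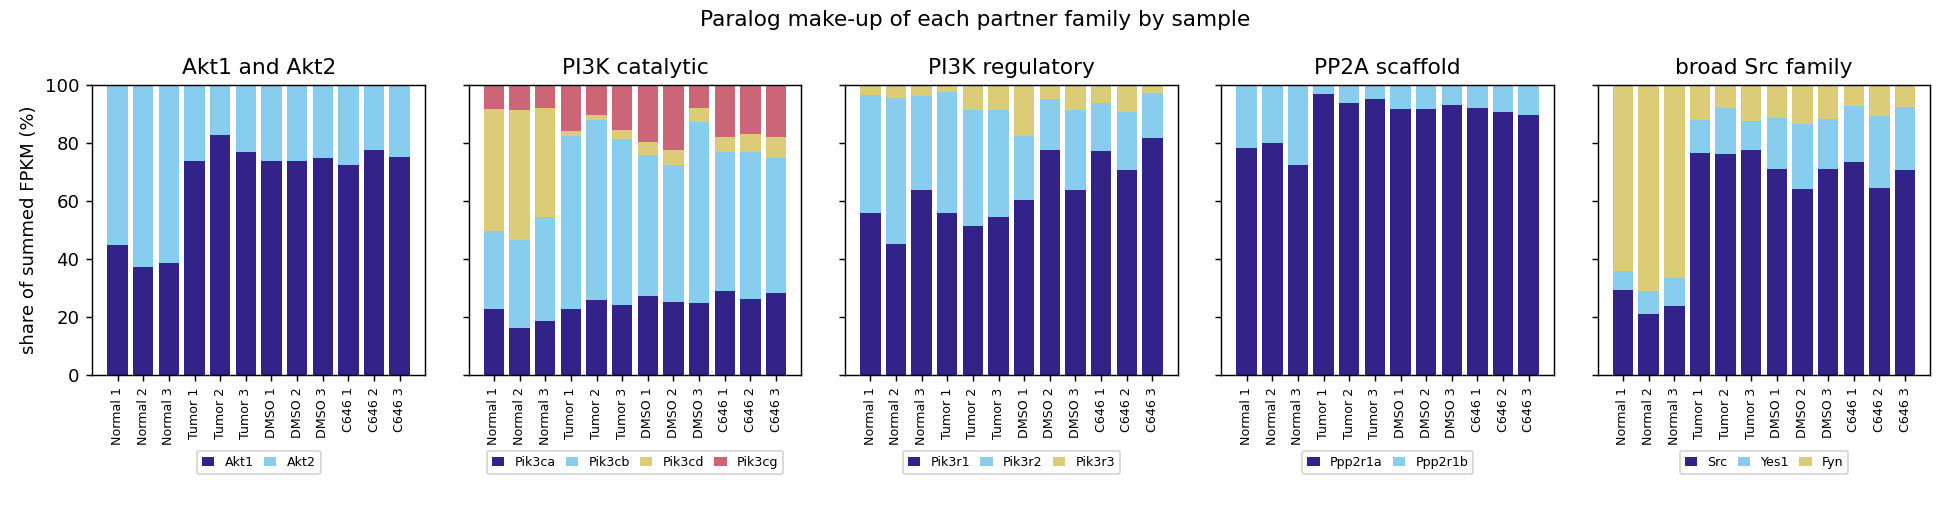
Share of each paralog in the summed FPKM of its family (y axis, percent, from 0 to 100) in each of the 12 samples (x axis), for 5 families. Akt2, Pik3cd, Ppp2r1b and Fyn took larger shares in the 3 Normal samples than in any tumor; the share of Akt2 was 55.3% to 62.7% in Normal and 17.2% to 26.3% in Tumor.

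Around the 9 genes, 5 lists of 97 other pathway genes were examined, of which 93 were tested. In tumor, 19 rose, 37 fell and 37 did not pass, a called share of 60.2% beside 60.5% of all genes. Their median log2 change was -0.25, against -0.02 over all genes. Scaling each sample to the same FPKM sum lowered the count that rose to 12, and leaving out Normal replicate 2 or 3 lowered the count that fell to 23 or 20. Those that fell include genes that reached 1 FPKM in Normal alone, such as Pik3cd and Shc2. The filter of 3 samples drops such genes once a Normal replicate is left out. Their part in the lower counts was not tested. In the Src arm (kinases and their regulators and substrates), 2 of 14 rose and 8 fell (71.4% called), from Bcar1, the p130Cas scaffold, at 0.80 to Blk, a B cell kinase, at -6.99. Blk was at 0.0224 to 0.164 FPKM in Tumor, near the added constant of 0.03125, so the size of its change depends on that constant. Blk too was tested only through Normal, where it was high, and so were Fgr and Pag1. Fgr reached at most 0.854 FPKM in Tumor and Pag1 at most 0.867 FPKM. Bcar1 missed the threshold after scaling to the same FPKM sum (limma adjusted p = 0.0526). Lck, the T cell kinase of this list, occurred only in a row joined with the microRNA gene Mir8119 and was not tested.

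In the Shc and Ras arm 3 of 24 rose, 5 fell and 16 did not pass, so that this list had the lowest called share of the 5, at 33.3%. Hras, a Ras GTPase itself, rose most. It was at 30.3, 33.0 and 28.4 FPKM in Normal and at 287, 570 and 696 FPKM in Tumor, a log2 change of 3.99 (limma adjusted p = 6.86e-05). Every untreated tumor was far above every normal gland, yet the injected tumors, in tables made separately, were listed at 32.7 to 50 FPKM in DMSO and 31.5 to 42.7 FPKM in C646. The high level was thus not found in the other tumors of the same genotype, and whether it depends on how the tables were made was not tested.

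In the PI3K and Akt arm 4 of 28 rose and 17 fell, with Pik3r3 highest and Pik3cd lowest. The called share was 75.0%, beside 60.5% of all genes, of which 28.8% rose and 31.7% fell. Inpp4b, at most 0.509 FPKM in Tumor, was like Pik3cd tested only through Normal, where both were high. In the PP2A arm 4 of 17 rose and 4 fell (47.1% called), from Igbp1, which binds the free catalytic subunit, at 0.79 to Ppp2r5a, a B56 regulatory subunit, at -3.46. Ppp2r5a went from 304 to 29.2 FPKM on average. Of 10 other binding partners of middle T, which include the 14-3-3 proteins, 6 rose and 3 fell (90% called): Sfn (14-3-3 sigma, an epithelial isoform) rose most, from 9.95 ± 3.51 to 57.2 ± 5.6 FPKM (SD, n = 3), and Ywhag (14-3-3 gamma) fell most, from 195 to 60.6 FPKM on average.

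**Figure D3:**
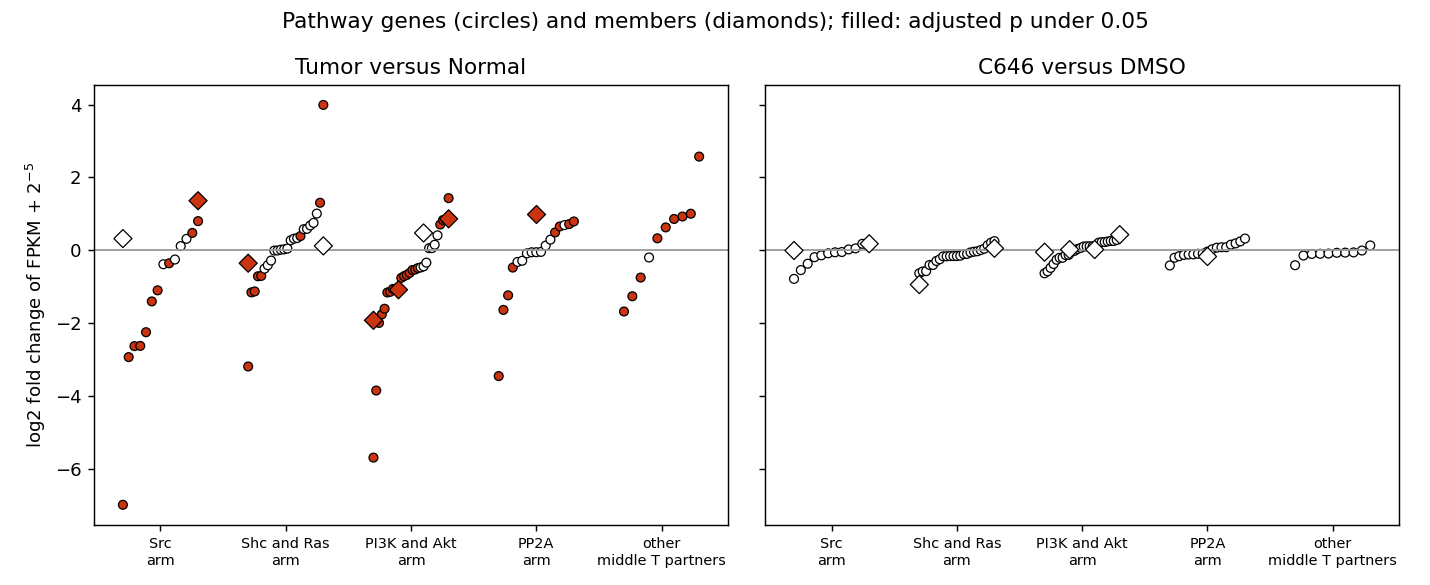
Log2 fold change (y axis) of the genes of the 5 lists (x axis), circles for pathway genes and diamonds for the 9 partner genes, ordered by size within a list; filled symbols had an adjusted p under 0.05. In tumor against normal gland the changes ran from -6.99 (Blk, which was near 0 FPKM in Tumor) to 3.99 (Hras), and no symbol is filled for C646 against DMSO.

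The second comparison asked whether injection of C646 altered the same transcripts in tumors. None of the 9 partner genes was called by limma, and none had an unadjusted p under 0.05. Over all 12083 genes tested 0.0% were called, with 384 genes at an unadjusted p under 0.05. The intervals state how large a change the 3 tumors a group could leave unseen. For Src, the levels were 45.8, 35.9 and 38.3 FPKM in DMSO and 44.7, 37.7 and 36.8 FPKM in C646, and the 95% interval of the log2 difference ran from -0.35 to 0.33. For Akt2, with 31.8, 33.9 and 33.7 FPKM in DMSO and 33.1, 31.2 and 31.5 FPKM in C646, it ran from -0.30 to 0.20. These were among the narrower intervals, and those of Shc1 (-0.26 to 0.37), Akt1 (-0.29 to 0.32) and Pik3ca (-0.37 to 0.41) were of similar width. Yes1 had an interval from -0.24 to 0.59.

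Pik3r1 and Ppp2r1a had the lowest unadjusted p of the 9 in limma (0.0947 and 0.163). Pik3r1 was at 93.6, 142 and 86.0 FPKM in DMSO and at 148, 118 and 159 FPKM in C646, so that DMSO replicate 2 lay within the C646 range and the other two below it. Its log2 difference was 0.43, with an interval from -0.10 to 0.95 (limma adjusted p = 0.99). Ppp2r1a was at 156, 152 and 154 FPKM in DMSO and at 142, 138 and 132 FPKM in C646. It was the only one of the 9 genes whose groups did not overlap, a position below DMSO that 4.52% of all genes tested shared, beside 4.04% above it (8.56% in all), and its log2 difference of -0.17 had an interval from -0.42 to 0.09 (limma adjusted p = 0.99). The difference shrank to -0.03 after quantile normalization and -0.04 after scaling to the same FPKM sum. None of the 88 pathway genes tested was called by limma either, and 4 had an unadjusted p under 0.05. All 5 ratios tested, that of Ppp2r1a to its paralog Ppp2r1b among them, overlapped between DMSO and C646.

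**Figure D4:**
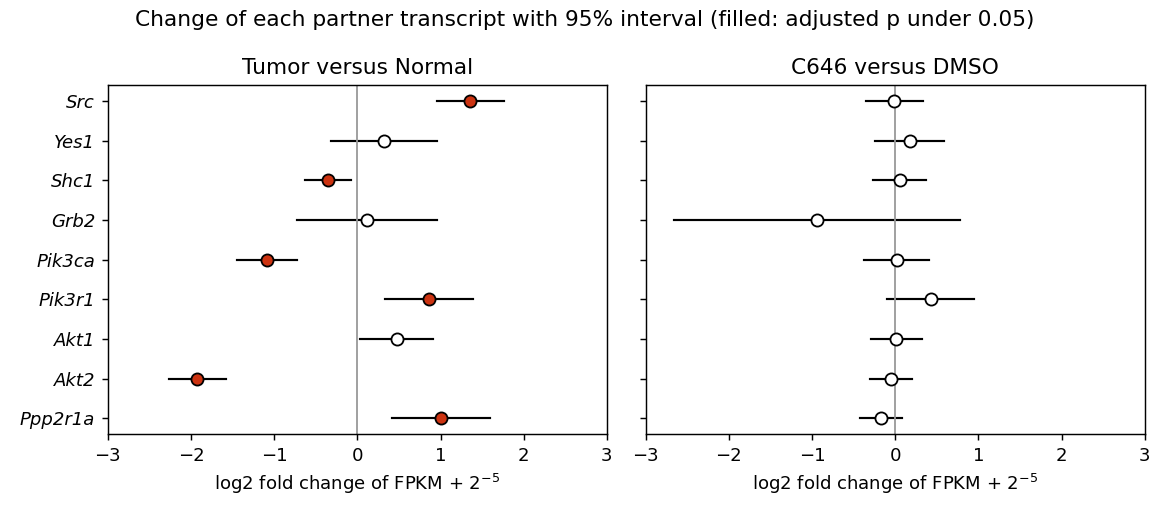
Log2 fold change (x axis) of each partner gene (y axis) with its 95% interval from limma, for Tumor against Normal on the left and C646 against DMSO on the right; filled points had an adjusted p under 0.05. On the left 3 filled points lie above 0 and 3 below; on the right every interval includes 0, and that of Grb2, from -2.66 to 0.78, is the widest.

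In the C646 comparison Grb2 had 1 sample that stood apart. It was at 241 FPKM in DMSO replicate 1, at 34.9 and 32.5 FPKM in DMSO replicates 2 and 3, and at 36.1, 33.3 and 32.1 FPKM in C646. DMSO replicate 1 was thus 6.68-fold above the next highest of the 6 injected tumors, while the other 5 lay between 32.1 and 36.1 FPKM. The log2 difference of -0.94 (interval from -2.66 to 0.78) became 0.0039 without that sample. In DMSO replicate 1, 29 of 12083 genes (0.24%) stood at least 5-fold above all 5 other injected tumors, and the counts for those others ranged from 0 to 23.

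The position of Grb2 and the expressed genes around it was then examined, a step chosen after the value of Grb2 was seen. Grb2 lies on mouse chromosome 11, at chr11:115644045-115708597 on the minus strand (GENCODE vM21, build GRCm38). In DMSO replicate 1, 9 expressed genes in a row, from Nup85 to Llgl2 (chr11:115564434-115855780), were each 4.32-fold to 8.54-fold above the mean of the other 2 DMSO tumors. The run included Nup85, Gga3, Mrps7, Mif4gd, Grb2, Caskin2, Tsen54 and Llgl2. Their products have no single role in common, and range from a nuclear pore protein (Nup85) and a mitochondrial ribosomal protein (Mrps7) to a polarity protein (Llgl2). Llgl2, for example, was at 191 FPKM in DMSO replicate 1 and between 21.7 and 25.0 FPKM in the other 5 injected tumors. Mrps7 was at 342 FPKM beside 49.6 to 68.9 FPKM. The next expressed gene after the run, Recql5, was 1.34-fold above its group mates and Smim5, just beyond it, 37.0-fold. Single genes farther off were also high in this sample: BC006965 (10.3-fold) and Sox9 (5.44-fold) before the run, and B3gntl1 (7.30-fold) and Tbcd (3.71-fold) after it.

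The same stretch stood out in Tumor replicate 3, the other sample in which Grb2 was high, but over a longer distance and by less. All 9 genes of the run were above the mean of the other 2 untreated tumors there, with a median log2 difference of 1.26. So were 24 of the 25 expressed genes within 3 Mb before Grb2 outside the run (median 1.02). Within 3 Mb after it, 46 of the 49 were also above that mean (median 1.06). From 3 to 6 Mb the median was 0.16 over 57 genes after Grb2 and -0.27 over only 6 genes before it. In DMSO replicate 1 the medians within 3 Mb on either side were 0.37 and -0.08. For the other 8 partner genes, the median over the 20 nearest expressed genes lay between -0.39 and 0.38 in every sample. DNA copy number was not analysed here.

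**Figure D5:**
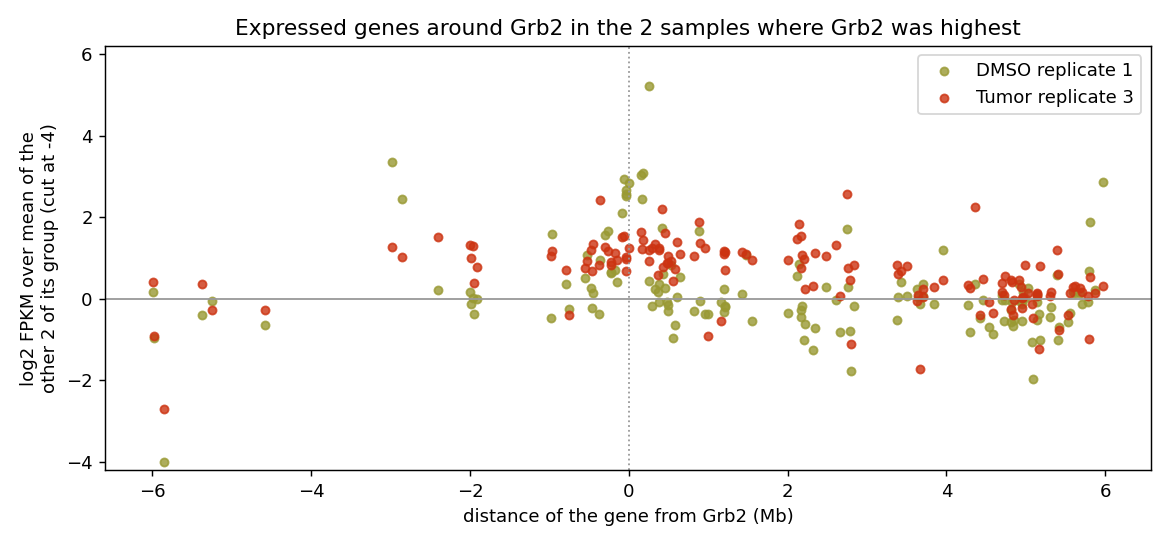
Log2 FPKM of each expressed gene over the mean of the other 2 samples of its group (y axis) against its distance from Grb2 in Mb (x axis), for DMSO replicate 1 and Tumor replicate 3; 1 value is cut at -4. DMSO replicate 1 was high at Grb2 (2.84) and the genes beside it, up to 3.09 for Llgl2 within the run and 5.21 for Smim5 just beyond, with a few high genes farther off on both sides, and Tumor replicate 3 shows a plateau near 1 that ends about 3 Mb after it.

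By level, Ppp2r1a ranked first of the 9 genes in the Normal, Tumor and DMSO groups and Pik3r1 in C646, where their ranges overlapped. In Normal the order was Ppp2r1a, Akt2, Akt1, Grb2, Pik3r1, Shc1, Src, Pik3ca and Yes1, and the neighbors Ppp2r1a and Akt2, Grb2 and Pik3r1, and Src and Pik3ca did not differ beyond their ranges. In Tumor Akt2 had moved from the second to the sixth place, below Src, with which its range overlapped. Yes1 and Pik3ca were the lowest of the 9 in every group, at 3.24 to 14.5 FPKM and 4.43 to 11 FPKM over the 12 samples.

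Across all 12 samples and 13232 expressed genes, the genes most like each partner were listed by Pearson's r of log2 FPKM, as a description of samples that share genotype, tissue and table. Akt2 was most like Ivd, a mitochondrial enzyme of leucine breakdown (r = 0.99), and Abhd6, a monoacylglycerol lipase (r = 0.99). Src was most like Cobl, an actin nucleator (r = 0.99), and Igsf3 (r = 0.99). For Ppp2r1a the leading gene was Pik3r2 (r = 0.98), and for Grb2 it was Mif4gd (r = 0.97), its neighbor on chromosome 11. For Pik3r1 they were Inhbb and Rb1 (r = 0.99 and 0.98), for Pik3ca Adamts12 and Sowahc (r = 0.98 and 0.97), and for Akt1 Rpp30 and Actl6a (r = 0.96 for both). Yes1 was most like Ints2 and Wdr20 (r = 0.98 for both), and Kif13a was among the genes most like Shc1 (r = 0.97).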

How the data were processed

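Poly-A RNA was sequenced from 12 samples, 3 in each of 4 groups, with a kit that does not keep strand. The deposited values are FPKM per gene name, which the authors made by trimming reads with cutadapt, aligning them to mm10 with TopHat2 2.1.1 and estimating levels with Cufflinks 2.2.1; the gene annotation is not given in the sources used here. The Normal and Tumor tables (23704 names) and the DMSO and C646 tables (23691 names) were made separately, so tests were run only within each pair. Rows of a repeated name were summed, and rows that join several names were kept apart. FPKM of overlapping genes cannot be separated by strand.

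Samples were grouped by their labels. limma 3.58.1 in R 4.3.3 was fitted to log2(FPKM + 0.03125) with trended empirical Bayes variances, restricted to genes that reached 1 FPKM in 3 or more of 6 samples, with Benjamini-Hochberg adjustment over all of them. Ratios between genes were compared with exact two-sided permutation tests. The limma step was tested on simulated data. Alternatives were other pseudocounts, filters, scalings, variance models and handling of repeated names, a fit of all 12 samples, the replicate number as a block, and leaving out each replicate. The limma p-values set a difference between groups against the spread between samples within groups. In Normal that spread is between pools of 3 mice, and in Tumor between single mice. Numbers of mapped reads were not used, so the depth is known only relatively, from steps between low values where at least 20% of them shared one ratio.

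The 9 genes, the pathway lists and the marker lists were chosen with earlier results of these data known. The genes named were the 9, a fixed set of their paralogs and regulators, the gene of each list with the largest called change without overlap in each direction, and for likeness the 2 genes with the highest r; the neighbors of Grb2 were chosen after their values were seen. Coordinates come from GENCODE vM21 and upstream windows from RefSeq, both on GRCm38. Ptpa was found under its older symbol Ppp2r4. Some genes that these rules name are not reported here.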

Additional observations from a re-analysis of the deposited data

How the results depend on the processing

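Of the partner genes called in tumor against normal gland, Src, Pik3r1, Ppp2r1a, Pik3ca and Akt2 kept their direction and their call in every alternative run, and Shc1 did not (adjusted p = 0.0537 without the variance trend, 0.0529 after median-ratio scaling and 0.013 to 0.114 over the fits of its own row alone). Pik3r1 and Ppp2r1a kept theirs narrowly, with a limma adjusted p of up to 0.0499 and 0.0474 on leaving out a replicate. Quantile normalization moved the median log2 change of all genes from -0.02 to 0.10, and scaling to the same FPKM sum moved it to -0.27, with Src then at 1.11 and Akt2 at -2.17. That scaling turned the split of all genes from 3758 higher and 4128 lower to 2759 higher and 4866 lower, and the pathway genes that rose from 19 to 12. Leaving out a replicate gave 2570 to 4172 genes lower and 20 to 36 pathway genes lower. The lowest of each came without Normal replicate 3 and the next without Normal replicate 2 (2686 and 23). Without Normal replicate 1, 2789 genes were lower. The filter of 3 samples was kept in these fits. Genes at 1 FPKM in the Normal samples alone therefore dropped out once any Normal replicate was left out. The genes tested were then 12056 to 12077, beside 13031 in the main fit. How much of the lower counts came from this was not tested.

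Values that turned sign were, in tumor against normal gland, Shc1 (0.27) and the log2 ratio of Shc1 to Grb2 (-0.48, then 0.15) with the joined row added, Grb2 (-0.033 after quantile normalization, -0.13 with equal FPKM sums, -0.31 to 0.47 on leaving out a replicate), Lyn (-0.14 with equal FPKM sums) and Ppp2ca (-0.14 to 0.030 on leaving out a replicate). For C646 they were Src (0.06 and 0.12 under these scalings, -0.095 to 0.093 without a replicate), Akt2 (0.011 and 0.073 under these scalings), Shc1 (-0.049 to 0.12), Grb2 (-1.44 to 0.0039), Pik3ca (-0.089 to 0.099) and Akt1 (-0.069 to 0.094) without a replicate, and the log2 ratios of Shc1 to Grb2 (-0.053 to 1.53) and Akt1 to Akt2 (-0.032 to 0.18) without a replicate. None of these was called in the C646 comparison. A fit of all 12 samples called 1 gene higher with C646, and leaving out DMSO replicate 2 called 12 lower (0 to 12 over the replicates left out), none of them a partner gene.

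Same-numbered samples did not deviate together throughout: the correlation of their deviations was -0.10 to 0.01 in Normal and Tumor and 0.07 to 0.17 in DMSO and C646, with 1 of 3 and 2 of 3 pairs best with their own number. A fit that blocked on the replicate number called 3439 genes higher in tumor and 3827 lower, the adjusted p of Shc1 was 0.0774 and that of Pik3cb 0.0828, and no other call of a named gene was lost. The depth of the libraries is unknown in reads, which limits statements on genes near 0 such as Shc3.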
